A study of Mus musculus with 12 samples.

Results

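The 8 genes described here, H2-Aa, H2-Ab1, H2-Eb1, Cd74, Ciita, H2-DMa, H2-DMb1 and H2-DMb2, encode the machinery with which mouse cells present peptides on major histocompatibility complex (MHC) class II molecules. They were taken by symbol from 24445 gene symbols counted in 12 RNA-seq libraries of cardiac macrophages (Mφ), and all 8 were among the 14608 genes that had enough counts to be tested. They were chosen by name, with earlier results of these data known. Adult male C57BL/6J mice carried osmotic pumps with saline (Ct, n = 4) or with 30 mg/kg/day of isoproterenol, which stimulates β-adrenergic receptors, for 14 days (early concentric hypertrophy, ECH, n = 4) or for 28 days (heart failure, HF, n = 4). How long individual Ct mice were infused is not stated in the sources used here. Hearts were digested, leukocytes were enriched with CD45 beads, and live cells positive for CD11b, CD14 and CD64 were sorted, with 1 library for each mouse. An antibody to MHC class II is listed among those for analysis and sorting, but it is not part of the stated sort gate.

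An MHC class II molecule is a pair of an α and a β chain that displays peptides from ingested material to CD4+ T cells. In the endoplasmic reticulum the pair is held by the invariant chain, Cd74, which fills the peptide groove. Cathepsins then trim the invariant chain in endosomes, and H2-M, a pair of H2-DMa with an H2-DMb chain, exchanges its last fragment for an antigenic peptide. The coactivator Ciita switches these genes on by docking on proteins bound to the X and Y boxes of their promoters. Cardiac Mφ are known to include MHC class II-high and MHC class II-low populations. In sorted bulk cells, fewer class II-high cells and less class II RNA in each cell cannot be told apart.

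The promoter sequences are shown because they carry the boxes on which the shared regulation of these genes is known to rest. RefSeq windows (GRCm38.p6) from 250 bases before to 50 bases after the start site were found for 5 of the 8 genes, and not for H2-Ab1, Cd74 and Ciita. The windows were searched on both strands for the Y box letters TGATTGG, an inverted CCAAT box, and for AAC, the core of the X box, at 20 to 30 bases before them. These letters were chosen after some of the windows had been seen. The arrangement was present in 4 of the 5 genes, H2-Aa, H2-Eb1, H2-DMb1 and H2-DMb2, and in neither of the 2 windows of H2-DMa. It was also present in the windows of H2-Oa, H2-Ob and H2-Eb2, other class II genes of the region. Of all 32851 promoter windows of the same length, 7.82% held TGATTGG and 1.05% held the whole arrangement. The capitals in the stretches below mark AAC and TGATTGG, each stretch reads 5′ to 3′ in the direction of transcription, and all lie upstream of the RefSeq start. The stretches are chr17:34287861-34287908 (minus strand) for H2-Aa and, on the plus strand, chr17:34305772-34305818 for H2-Eb1, chr17:34145122-34145169 for H2-DMb2, chr17:34238814-34238858 for H2-Ob and chr17:34325539-34325585 for H2-Eb2. Those of H2-DMb1 and H2-Oa overlap an annotated first exon and are not shown.
H2-Aa: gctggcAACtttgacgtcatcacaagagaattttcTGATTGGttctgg
H2-Eb1: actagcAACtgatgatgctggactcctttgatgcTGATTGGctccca
H2-DMb2: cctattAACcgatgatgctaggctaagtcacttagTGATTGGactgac
H2-Ob: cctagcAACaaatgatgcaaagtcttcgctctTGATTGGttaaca
H2-Eb2: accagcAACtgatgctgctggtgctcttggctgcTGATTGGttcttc
Between AAC and TGATTGG lay 26 bases in H2-Aa, H2-DMb1, H2-DMb2 and H2-Oa, 25 in H2-Eb1 and H2-Eb2, and 23 in H2-Ob. The AAC began between 74 bases (H2-Oa) and 130 bases (H2-Eb2) before the start site. A match describes the letters only, and binding was not measured.

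**Figure D1:**
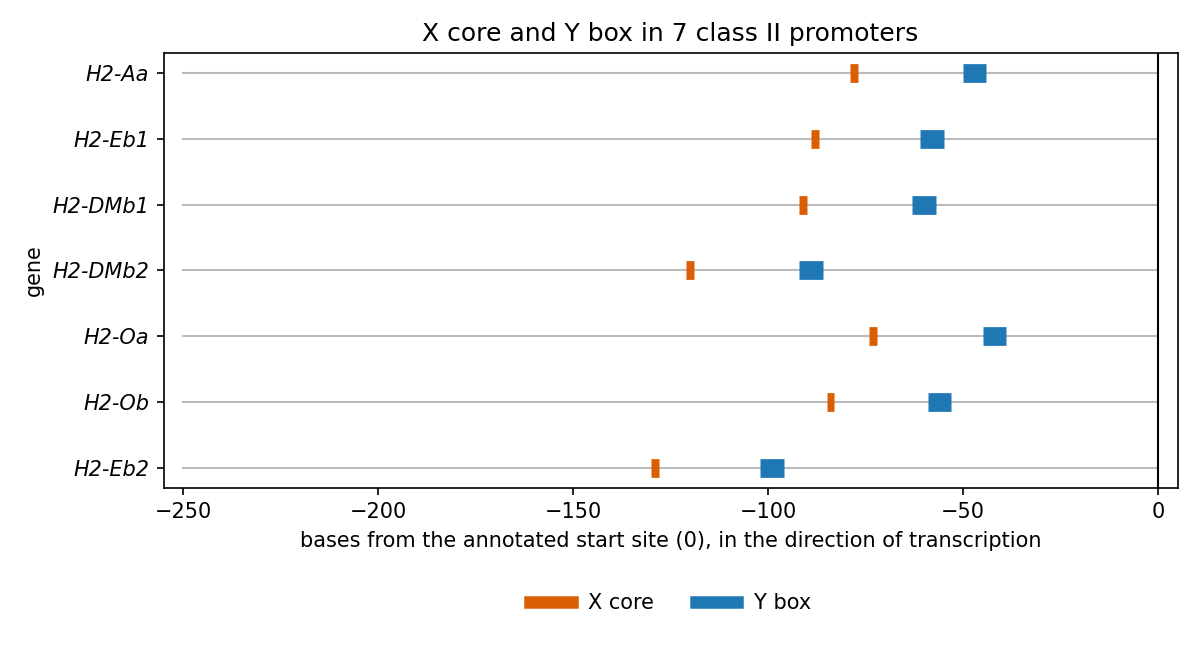
Position of the X core (AAC, orange) and of the Y box (TGATTGG, blue) in 7 class II promoters, in bases from the annotated start site (0). The spacing of 23 to 26 bases lies inside the 20 to 30 bases that the search allowed, so the search itself limited its range.

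Of the 8 genes, 6 lay on chromosome 17 of build GRCm38 (the mm10 build to which the study aligned its reads), inside the MHC region. H2-DMa spans 34119541 to 34139101, H2-DMb2 34143307 to 34151555, H2-DMb1 34153072 to 34160230, H2-Ab1 34257689 to 34269419, H2-Aa 34282744 to 34287823 and H2-Eb1 34305867 to 34316674 in the GENCODE M21 annotation. Ciita lies on chromosome 16 (10480059 to 10528418) and Cd74 on chromosome 18 (60803848 to 60812652). Exons of Ciita overlap an exon of Dexi on the other strand, exons of H2-DMa overlap Brd2 on the other strand, and Cd74 contains a microRNA gene. The strand setting of the counting is not stated in the sources used here, so reads of such overlaps cannot be assigned to a strand. H2-DMb1 and H2-DMb2 are near copies, with 95.8% identity over 1080 aligned bases of their transcripts, and 19.1% of the 75-base windows of H2-DMb1 (75 bases being the read length per the labels, before trimming) also occurred in H2-DMb2. Trimmed reads can be shorter, for which the shared part was not computed. Their counts can therefore have been shared or lost at those windows. None of the 75-base windows of the other 6 genes occurred in a transcript of another gene.

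The libraries held between 88466559 and 111180291 counts, and between 13600 (HF library 1) and 15940 genes with a count. Levels are given below as normalized counts (CPM, counts per 1e6 counts of the library after TMM scaling). Libraries carry numbers in their labels from which 2 sets can be read, ECH 1 and 2 with the 4 Ct libraries and ECH 3 and 4 with the 4 HF libraries. Neither the labels nor the methods say what the sets are, and between Ct and HF the set and the group cannot be told apart. Labels also hold a code number, which is the same within Ct libraries 1 and 2 and within Ct libraries 3 and 4. It is likewise the same within ECH libraries 3 and 4 and within HF libraries 1 and 2. The other ECH and HF libraries each have a code of their own. What the code stands for is not stated in the sources used here. Within ECH, the set and a shared code cannot be told apart. Among marker lists of other cells, the summed level of 6 B cell genes was 157, 461, 100.1 and 236 CPM in Ct libraries 1 to 4, 36.1 to 82.0 CPM in ECH and 50.7 to 77.4 CPM in HF. B cells carry MHC class II themselves, and Ct library 2 held the most B cell marker RNA. The summed level of 5 macrophage genes lay between 6438 and 9584 CPM in all libraries, and none of the 5 passed the test in any comparison.

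Together the 8 genes took 2.78 ± 0.27% of all counts in Ct, 1.80 ± 0.42% in ECH and 2.34 ± 0.46% in HF (SD, n = 4 each). The share was 1.56%, 1.67% and 1.56% in ECH libraries 1, 3 and 4, and 2.43% in ECH library 2. In HF it ran from 1.76% in library 2 to 2.88% in library 3. ECH libraries 1, 3 and 4 lay below every Ct library, ECH library 2 lay beside the lowest Ct library (2.42%), and HF spanned the gap between them.

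Per kilobase of the principal transcript, Cd74 was the most abundant of the 8 in Ct Mφ, at 11048 ± 583 CPM per kb (SD, n = 4). The α and β chains H2-Ab1 (3819 ± 545 CPM per kb) and H2-Aa (3474 ± 478) came next, with overlapping spreads, followed by H2-Eb1 (1750.4 ± 256). The H2-M genes H2-DMb1 (261 ± 32.0 CPM per kb) and H2-DMa (222 ± 14.8) lay close together. H2-DMb2 (14.6 ± 7.89 CPM per kb) and Ciita (13.6 ± 6.19) were lowest and did not differ beyond their spread. The order of the genes was the same in ECH and in HF except at that end, where Ciita stood above H2-DMb2 in both (8.05 ± 2.15 against 6.03 ± 0.969 CPM per kb in ECH, and 9.52 ± 3.03 against 8.40 ± 1.54 in HF), again within the spread.

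**Figure D2:**
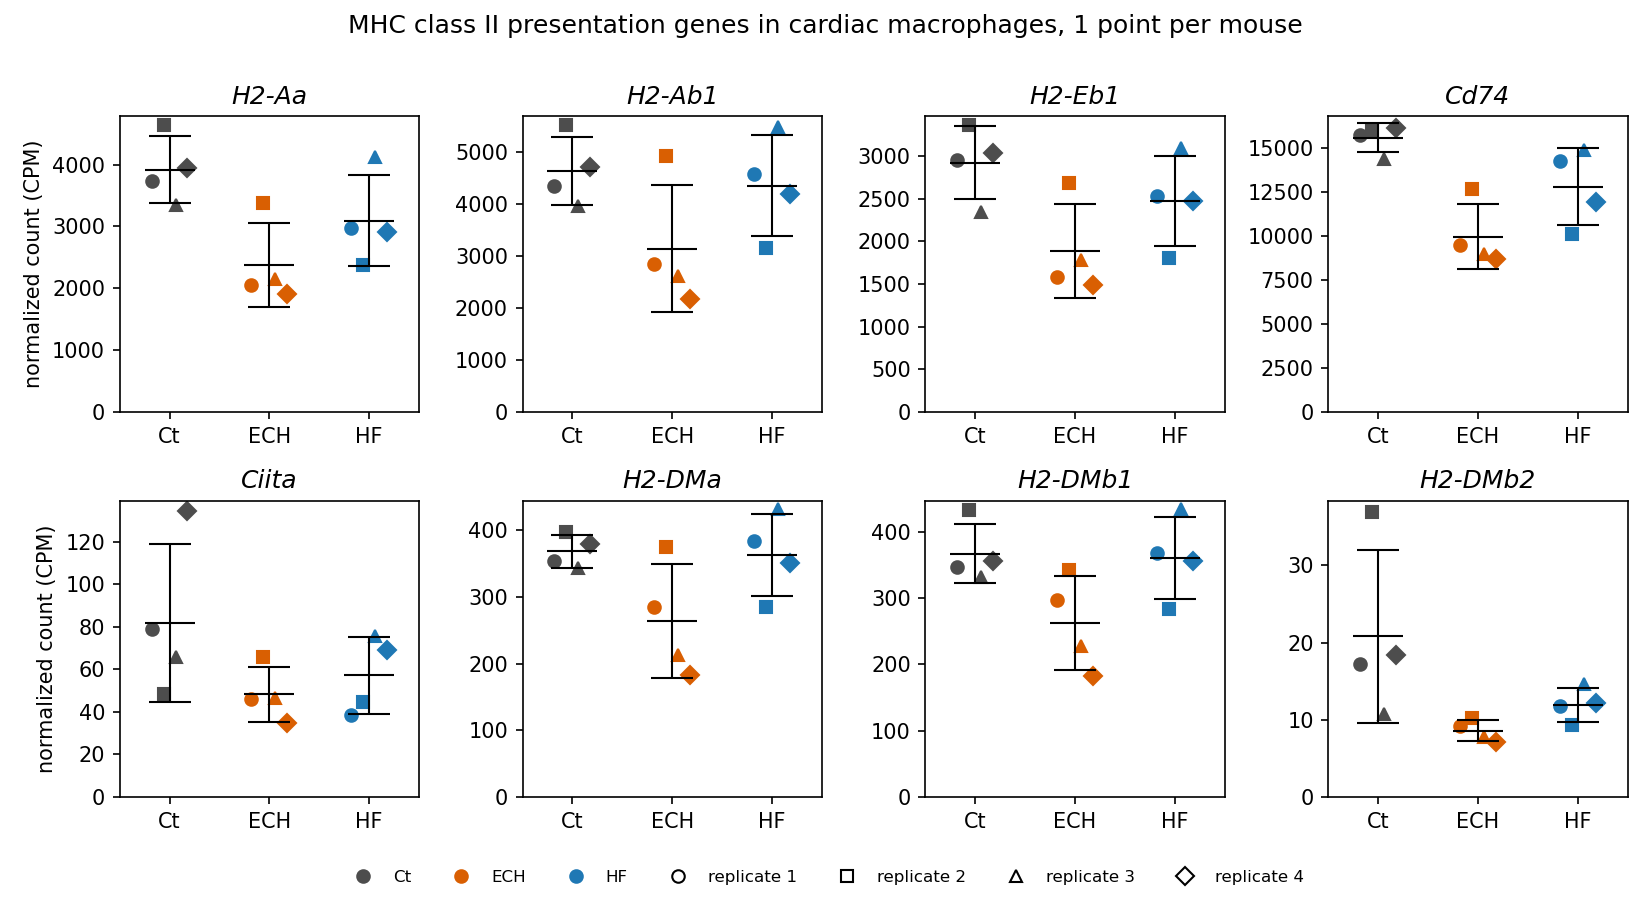
Normalized counts (CPM, linear axis from 0) of the 8 genes in each of 12 mice, grouped as Ct, ECH and HF; the wide tick is the mean and the bar is 1 SD (n = 4), and symbols mark the replicate. ECH libraries 1, 3 and 4 lie below all Ct libraries in Cd74, H2-Aa, H2-Ab1, H2-Eb1 and the H2-M genes, and ECH library 2 is the highest ECH point in each panel.

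ECH Mφ were compared with Ct Mφ to ask how 14 days of isoproterenol changed the class II program. All 8 genes had a lower fitted level in ECH, by a median log2 fold change of -0.64 against 0.010 over all genes tested. None passed the study's thresholds (FDR under 0.05 and at least 2-fold) in the edgeR quasi-likelihood test, which 52 genes (0.356% of those tested) passed. All 8 had an unadjusted p under 0.05 in this direction, as had 5.89% of all genes, and their FDR lay between 0.101 and 0.376. That count of 8 fell to 4 without ECH library 3 or ECH library 4, to 5 without Ct library 2 or Ct library 4, and to 3 with the library set as a covariate. DESeq2 and the likelihood ratio test of edgeR each gave 3 genes with an FDR under 0.05 (H2-Aa, Cd74 and H2-DMb2), of which H2-DMb2 also passed the 2-fold limit, and limma-voom gave none. Of all 14608 genes, DESeq2 called 248 at both thresholds, the likelihood ratio test 218 and limma-voom 84.

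Cd74, the invariant chain, was at 15742, 16041, 14372 and 16156 CPM in Ct libraries 1 to 4 and at 9507, 12678, 8960.5 and 8675 CPM in ECH. The 2 groups did not overlap, which held in this direction for 3.64% of all genes. The log2 fold change of Cd74 was -0.65 ± 0.16 (SE), a 1.56-fold lower level (FDR 0.101, edgeR). When each of the 12 libraries was left out, its FDR ran from 0.042 (without ECH library 2, the ECH library nearest to Ct) to 0.322 (without ECH library 3), and it was 0.500 with the library set as a covariate.

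H2-Aa, the α chain of the I-A molecule, was at 3742, 4638, 3350.5 and 3943 CPM in Ct and at 2049, 3380.5, 2145 and 1910.3 CPM in ECH. Only ECH library 2 reached the Ct range. The log2 fold change was -0.72 ± 0.21 (SE; FDR 0.167, edgeR). When each library was left out, its FDR ran from 0.046 (without ECH library 2) to 0.447 (without ECH library 3), and it was 0.630 with the library set as a covariate. H2-Ab1, its β chain partner, was at 4334, 5507, 3963 and 4709 CPM in Ct and at 2839, 4914, 2621 and 2175 CPM in ECH, and ECH library 2 again lay inside the Ct range. H2-Eb1, the β chain of the I-E molecule, was at 2952, 3366, 2339 and 3029 CPM in Ct and at 1584, 2683, 1785 and 1493 CPM in ECH. The log2 fold changes were -0.56 ± 0.24 for H2-Ab1 and -0.63 ± 0.21 for H2-Eb1 (SE; FDR 0.376 and 0.240, edgeR). The α chain of I-E, which C57BL/6 mice are known not to make, is listed as H2-Ea-ps and had 0 counts in all 12 libraries, which allows up to 3 counts a library (counting error only).

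H2-DMa and H2-DMb1, the chains of the peptide exchanger H2-M, had nearly the same fitted difference, with log2 fold changes of -0.48 ± 0.20 and -0.48 ± 0.19 (SE; FDR 0.365 and 0.334, edgeR). H2-DMa was at 354, 398, 343 and 379 CPM in Ct and at 284, 374, 212 and 182 CPM in ECH. H2-DMb1 was at 348, 433, 332 and 355 CPM in Ct and at 297, 343, 228 and 183 CPM in ECH. In both genes ECH libraries 3 and 4 were the lowest and ECH library 2 lay inside the Ct range. H2-DMb2, the second β chain gene of H2-M, was at 17.2, 36.9, 10.8 and 18.3 CPM in Ct and at 9.14, 10.3, 7.83 and 7.15 CPM in ECH. The groups did not overlap, as was so in this direction for 3.64% of all genes, though Ct library 3 and ECH library 2 nearly met. The log2 fold change of H2-DMb2 was -1.27 ± 0.32 (SE), a 2.42-fold lower level (FDR 0.115, edgeR). When each library was left out, its FDR ran from 0.041 (without Ct library 3, where it passed both thresholds) to 0.342 (without ECH library 3), and it was 0.540 with the library set as a covariate. Without Ct library 2 and HF library 1, a fit chosen after the data were seen, its log2 fold change was -0.86.

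Ciita, the coactivator, was at 78.8, 48.4, 65.7 and 134 CPM in Ct and at 45.8, 66.0, 46.6 and 35.0 CPM in ECH. The groups overlapped, since Ct libraries 2 and 3 were below ECH library 2. Its log2 fold change was -0.76 ± 0.31 (SE; FDR 0.357, edgeR).

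**Figure D3:**
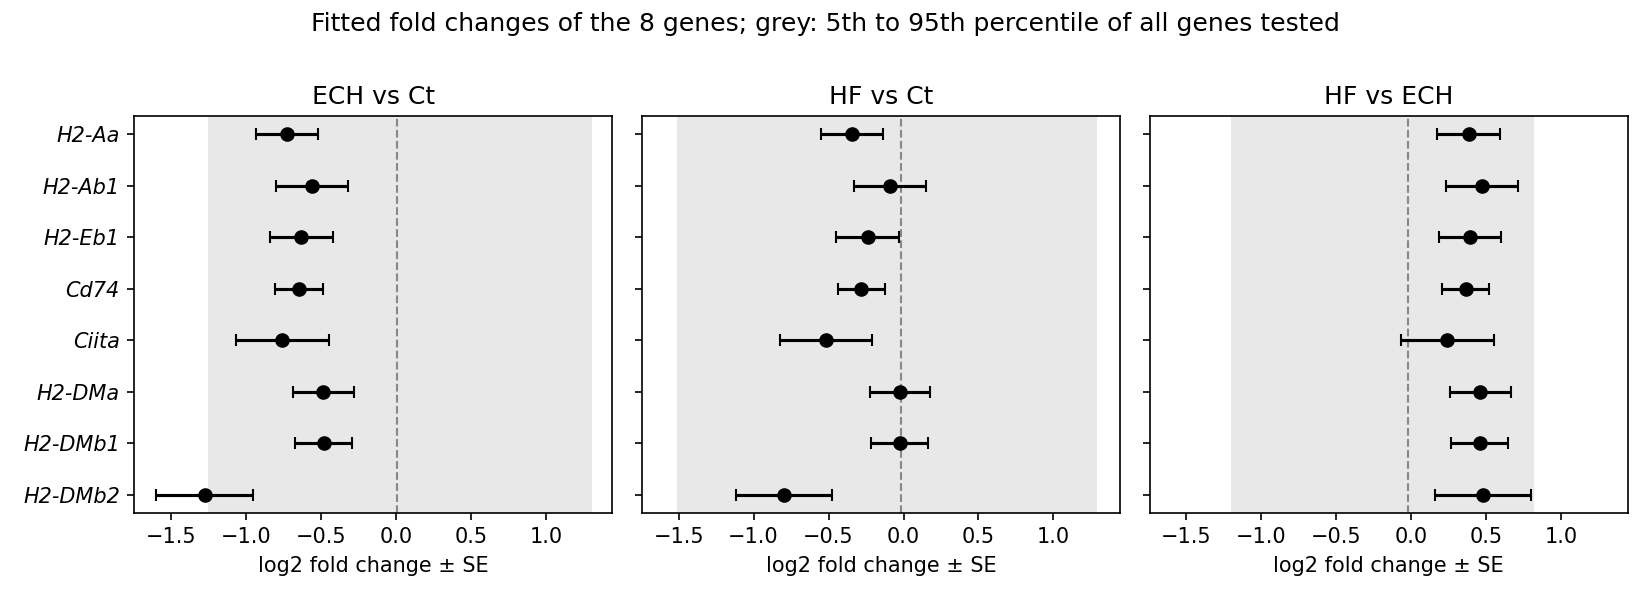
Fitted log2 fold changes of the 8 genes (points, bars 1 SE) in 3 comparisons; the dashed line is the median of all genes tested and the grey band their 5th to 95th percentile. All 8 genes lie below 0 in ECH vs Ct (median -0.64) and above 0 in HF vs ECH (median 0.42), and H2-DMb2 at -1.27 is the 1 gene outside a band.

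HF Mφ were compared with Ct Mφ to ask whether the levels still differed after 28 days. The median log2 fold change of the 8 genes was -0.26, against -0.015 over all genes tested. None was called, against 55 genes (0.377%) of all those tested, and H2-DMb2 alone had an unadjusted p under 0.05, as had 8.72% of all genes in this direction. The count was 0 without HF library 2 and 2 without HF library 3. DESeq2, the likelihood ratio test and limma-voom called no member either, against 333, 273 and 130 of all genes. H2-DMb2 was at 11.7, 9.26, 14.6 and 12.2 CPM in HF, with a log2 fold change of -0.80 ± 0.32 (SE; FDR 0.257, edgeR). Cd74 was at 14234, 10139.5, 14898 and 11957 CPM in HF, with a log2 fold change of -0.28 ± 0.16 (SE; FDR 0.404, edgeR). HF library 3 lay inside the Ct range of Cd74, HF library 1 just under it, and HF libraries 2 and 4 well below it. H2-DMa and H2-DMb1 were nearest to their Ct levels, with log2 fold changes of -0.022 ± 0.20 and -0.025 ± 0.19 (SE; FDR 0.974 and 0.967, edgeR). With the library set as a covariate the median was 0.11 and 6 of the 8 values turned positive, all but Ciita and H2-DMb2. The direction of this comparison thus depended on that term. The term itself rests only on ECH libraries 1 and 2 against ECH libraries 3 and 4, since Ct and HF each lie in 1 set. ECH libraries 3 and 4 also share a code number, which ECH libraries 1 and 2 do not.

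Relative to H2-Ab1, H2-Aa was lower in each HF library than in each Ct library, and for H2-Eb1 the 2 groups nearly met. Counts of H2-Aa divided by those of H2-Ab1 were 0.863, 0.842, 0.845 and 0.837 in Ct and 0.649, 0.752, 0.751 and 0.694 in HF, without overlap. In ECH they were 0.722 and 0.688 in libraries 1 and 2 and 0.818 and 0.878 in libraries 3 and 4. Counts of H2-Eb1 divided by those of H2-Ab1 were 0.590 to 0.681 in Ct, 0.546 to 0.686 in ECH and 0.553 to 0.589 in HF. Both ratios share H2-Ab1, were noticed among 6 ratios of these genes after the values were seen, and were not tested. How often the ratio of other gene pairs separates HF from Ct was not computed. Ct and HF also lie in different library sets. H2-Aa itself was at 2972, 2369.9, 4118 and 2909 CPM in HF (log2 fold change against Ct -0.34 ± 0.21, SE; FDR 0.449, edgeR), and H2-Ab1 at 4581, 3152, 5482 and 4188 CPM (-0.089 ± 0.24, SE; FDR 0.897).

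HF Mφ were compared with ECH Mφ to ask whether the levels moved between 14 and 28 days of infusion. All 8 genes had a higher fitted level in HF, by a median log2 fold change of 0.42 against -0.018 over all genes tested. No gene of the 14608 was called in this comparison (0%), and the lowest FDR among the 8 was 0.595. An unadjusted p under 0.05 was found for 3 of them, as for 2.81% of all genes in this direction: Cd74 with a log2 fold change of 0.36 ± 0.16, H2-DMa with 0.46 ± 0.20 and H2-DMb1 with 0.46 ± 0.19 (SE, edgeR). The count of 3 was 0 without ECH library 3, ECH library 4, HF library 1 or HF library 3, 1 without HF library 4, and 6 without ECH library 2 or HF library 2. DESeq2 had 4 of the 8 at an unadjusted p under 0.05, the likelihood ratio test 3 and limma-voom 3. None of them called a member, against 47, 48 and 0 of all genes. HF values of H2-DMa were 384, 285, 431 and 351 CPM and those of H2-DMb1 were 369, 284, 434 and 356 CPM, with HF library 2 inside the ECH range of both genes and HF library 4 inside that of H2-DMa. This comparison and that of ECH with Ct share the 4 ECH libraries, so their opposite directions are not independent.

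Within the sets read from the library numbers, ECH libraries 1 and 2 against Ct gave a median log2 fold change of -0.48 with 8 of 8 values below 0, 1 unadjusted p under 0.05 and no FDR under 0.940. The members differed in how far their values moved in this fit, with H2-DMa at -0.17, H2-DMb1 at -0.21 and H2-Ab1 at -0.26, against -0.48, -0.48 and -0.56 with all libraries. Cd74 was at -0.50, H2-Aa at -0.54, H2-Eb1 at -0.46, Ciita at -0.56 and H2-DMb2 at -1.11. HF against ECH libraries 3 and 4 gave a median of 0.64 with 7 unadjusted p under 0.05, and there H2-DMa and H2-DMb1 had an FDR under 0.05 (lowest 0.032, edgeR) without reaching 2-fold. In that fit 370 of 14864 genes tested were called, against 0 of the members. The shares of all genes with an unadjusted p under 0.05 in these 2 fits were not computed. HF against Ct has no value within a set.

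Of the 8 genes, 6 varied together across mice, and Ciita and H2-DMb2 followed them less closely. After each gene was set to a mean of 0, the median Pearson correlation over the 28 pairs was 0.87 across 12 libraries, and it was 0.94 over the 15 pairs without Ciita and H2-DMb2. Within groups, with each group's mean removed, these medians were 0.82 and 0.92. Pairs with Ciita had a median of 0.57, and of 0.42 within groups, where Ciita and H2-DMb2 had 0.0021. Pairs with H2-DMb2 had a median of 0.76, and of 0.65 within groups. These libraries share depth, groups and sets, and the correlations are descriptions. The mean of the 8 was highest in Ct libraries 2 and 4 (0.51 and 0.45 above the mean, log2) and HF library 3 (0.39 above) and lowest in ECH library 4 (0.73 below). Counts of H2-DMa divided by those of H2-DMb1 stayed between 0.919 and 1.09 in all 12 libraries.

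**Figure D4:**
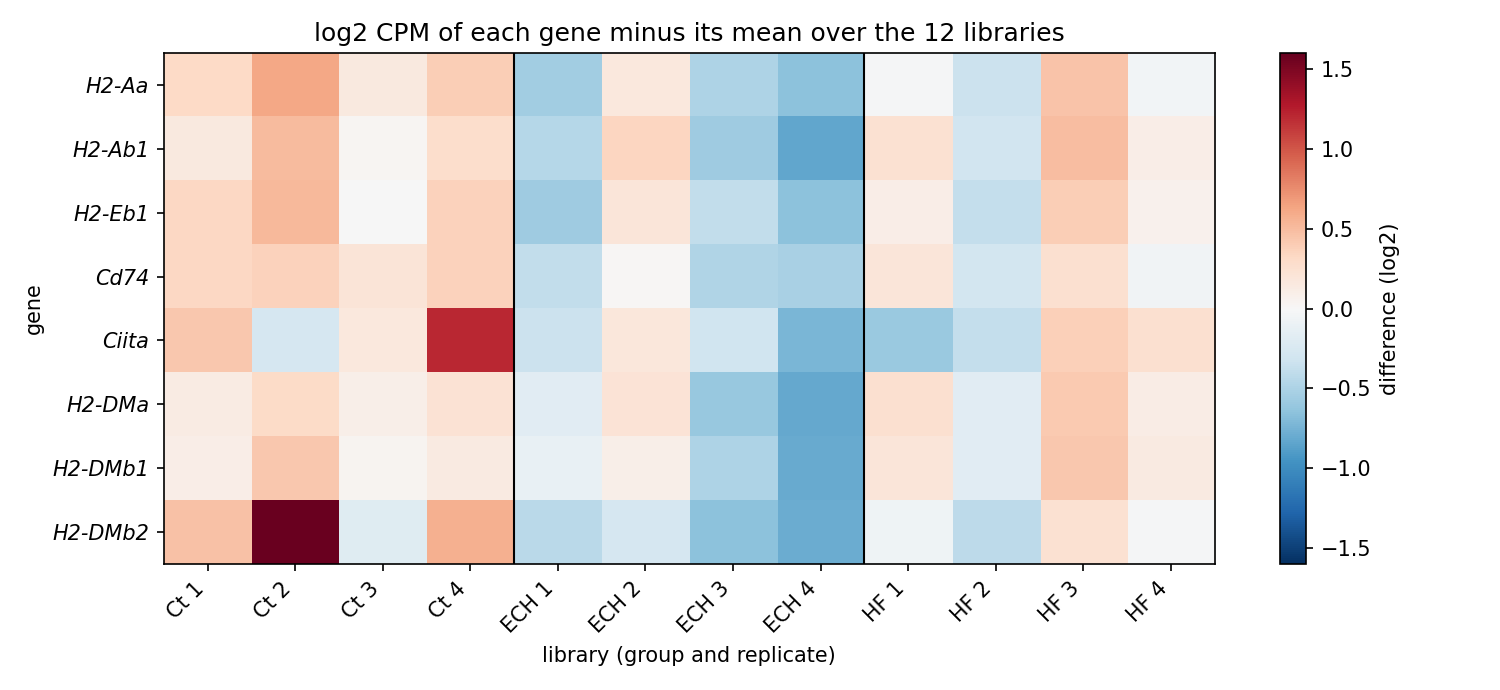
Level of each of the 8 genes in each library as the difference of its log2 CPM from its mean over 12 libraries (red above, blue below). ECH libraries 1, 3 and 4 are blue in all rows and ECH library 2 is near 0 or red except in H2-DMb2; the darkest cells are H2-DMb2 in Ct library 2 and Ciita in Ct library 4.

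The ratio of H2-DMb2 to H2-DMb1 counts ranked the libraries as the B cell markers did in Ct, and varied less within ECH and HF. It was 0.0494, 0.0852, 0.0324 and 0.0516 in Ct libraries 1 to 4, in the same order as the B cell sums of 157, 461, 100.1 and 236 CPM. In HF it was 0.0318, 0.0326, 0.0336 and 0.0344, in the reverse order of the sums of 77.4, 62.4, 58.3 and 50.7 CPM. In ECH it was 0.0308, 0.0299, 0.0343 and 0.0390 beside sums of 82.0, 56.9, 36.1 and 48.4 CPM. There libraries 3 and 4 had the higher ratios and the lower sums. The SD of the ratio was 0.022 in Ct, 0.0041 in ECH and 0.0011 in HF (n = 4 each), so the order within HF rests on small differences. Of the 75-base windows of H2-DMb2, 18.8% also occurred in H2-DMb1, so the ratio can include shared reads. These orders were not tested. All 6 B cell genes had lower fitted levels in ECH and in HF than in Ct. The part of B cell RNA in the results of the 8 genes was not tested. H2-Oa and H2-Ob, the chains of H2-O, which restrains H2-M and is known from B cells, went the same way: H2-Oa was at 6.87, 11.4, 2.53 and 7.14 CPM in Ct and at 1.90 to 2.44 CPM in ECH (log2 fold change -1.69 ± 0.45, SE; FDR 0.135, edgeR), and H2-Ob at 30.3, 67.0, 16.0 and 43.1 CPM in Ct and at 10.8 to 20.5 CPM in ECH (-1.35 ± 0.44; FDR 0.232). H2-Eb2 stayed at or under 2.42 CPM in every library.

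**Figure D5:**
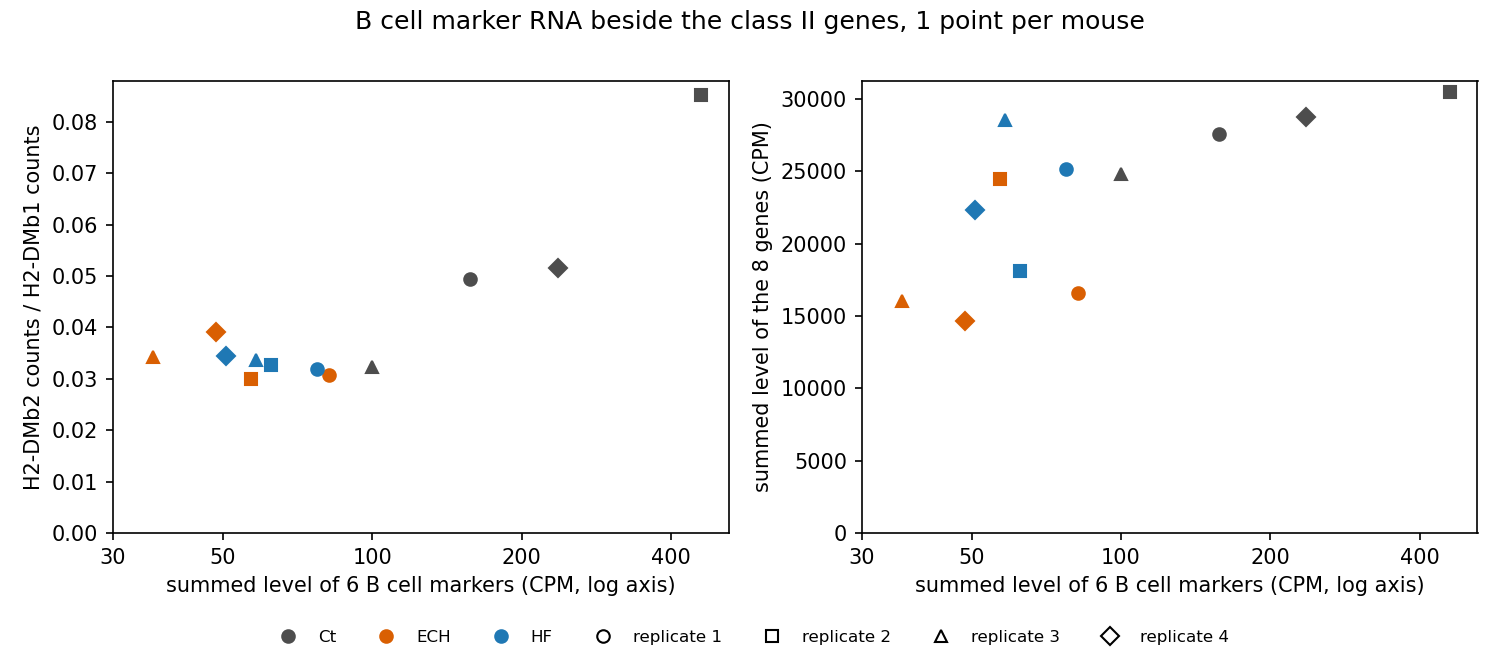
Summed level of 6 B cell markers (CPM, log axis) against the ratio of H2-DMb2 to H2-DMb1 counts (left) and the summed level of the 8 class II genes (right), 1 point per mouse. The 4 Ct libraries have the highest B cell sums, and Ct library 2, at 461 CPM, has the highest ratio, 0.0852.

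Markers of other cells were summed in the same way. The stated gate on CD11b, CD14 and CD64 would be expected to remove B, T and NK cells, and RNA of their markers was measured in the sorted libraries all the same. The summed level of 8 dendritic cell genes was 135 to 300.0 (Ct), 136 to 192 (ECH) and 184 to 233 CPM (HF), and that of 4 T and NK cell genes 11.1 to 44.6, 2.09 to 17.2 and 4.75 to 13.7 CPM. Flt3, a dendritic cell growth factor receptor, was at 0.344 to 6.82 CPM in Ct and 10.5 to 55.8 CPM in ECH (FDR 0.123, edgeR). Ccr7, the receptor that guides dendritic cells to lymph nodes and the dendritic cell gene with the lowest FDR, was at 48.6 to 164 CPM in Ct and 17.02 to 44.0 CPM in ECH (log2 fold change -1.75 ± 0.38, SE; FDR 0.071, edgeR). Within Ct (85.4, 164, 48.6 and 120 CPM in libraries 1 to 4) and within ECH it ranked the libraries as the B cell sums did, and within HF it did not. The median log2 fold change of the 8 dendritic cell genes was 0.065, with 5 above 0 and 3 below. Of the T and NK cell genes, Cd3d was at 2.31 to 11.5 and 0.431 to 2.09 CPM (FDR 0.354), and all 4 had fitted levels below Ct. The 5 genes of Ly6C-high monocytes summed to 291 to 589 (Ct), 508 to 687 (ECH) and 539 to 903 CPM (HF), with Chil3 at 23.6 to 52.8 CPM in Ct and 54.1 to 185 CPM in ECH (FDR 0.202) and 3 of the 5 fitted differences above 0 (median log2 fold change 0.41). Of 5 genes of resident cardiac Mφ, 1 was called in ECH against Ct, Timd4, a phosphatidylserine receptor, which fell from 112 to 227 CPM in Ct to 33.6 to 77.3 CPM (log2 fold change -1.62 ± 0.30, SE; FDR 0.034, edgeR), with an FDR under 0.05 in 10 of 24 other fits. The list did not move one way: Folr2 and Cx3cr1 had log2 fold changes of -0.56 and -0.97 (FDR 0.216 and 0.451, edgeR), Lyve1 had 0.39 (FDR 0.677), and Mertk, a receptor tyrosine kinase of phagocytes, was at 76.0 to 177 CPM in Ct and 174 to 496 CPM in ECH (1.43 ± 0.35, SE; FDR 0.101). Ccr7, Mertk, Folr2, Cx3cr1 and Lyve1 were named after their values were seen. The integrin Itgam, part of the sort gate, was at 223 to 559 CPM in Ct and 636 to 787 CPM in ECH (FDR 0.132). How far these cells contribute to the class II levels was not tested.

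The proteins that assemble on class II promoters with Ciita gave no call. None of the 7 listed promoter factors was called in any comparison, and in ECH against Ct their median log2 fold change was 0.10. Rfx5 was at 16.2, 4.69, 16.7 and 18.3 CPM in Ct and at 11.4, 17.2, 22.1 and 18.4 CPM in ECH, and Rfxap at 31.5 to 37.3 and 31.7 to 43.0 CPM. Rfxank, the third RFX subunit, was at 15.4 to 23.8 CPM in Ct and 11.9 to 13.6 CPM in ECH (log2 fold change -0.48 ± 0.20, SE; FDR 0.357, edgeR). Its groups did not overlap, as was so in this direction for 3.64% of all genes. Of 7 genes of IFN-gamma signalling, the pathway known to induce Ciita, none was called, with a median log2 fold change of 0.25 in ECH against Ct. Socs1, an inhibitor that the pathway itself induces, had the largest difference, with 11.2 to 27.6 CPM in Ct and 4.10 to 15.7 CPM in ECH (-1.03 ± 0.40, SE; FDR 0.324, edgeR).

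The enzymes that degrade the invariant chain and antigen had fitted levels above Ct in both isoproterenol groups, which share the Ct libraries. All 7 listed genes had positive log2 fold changes in ECH (median 0.44) and in HF (median 0.31), and 1, Ctsd, was called in each. Ctsd, the aspartic protease cathepsin D, was at 1001, 990.5, 989 and 1137 CPM in Ct, at 2362, 2598, 2703 and 1647 CPM in ECH and at 2447, 2353, 2686 and 2227 CPM in HF. It rose by a log2 fold change of 1.18 ± 0.15 in ECH (FDR 0.0080, edgeR) and 1.24 ± 0.15 in HF (FDR 0.0033). In ECH its FDR was under 0.05 in 22 of 24 other fits, and it was 0.139 within the first library set alone. Ctss, cathepsin S, which makes the last cut of the invariant chain, was at 1752 to 2148 (Ct), 2459.6 to 3202 (ECH) and 2306 to 2626 CPM (HF) (FDR 0.157 and 0.228, edgeR). Ifi30, a reductase of endosomal antigen, was at 117 to 176 CPM in Ct and 135 to 228 CPM in ECH (FDR 0.541).

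Genes that act on class II at the cell surface gave no called member of 4. March1, the ubiquitin ligase that removes class II molecules, was at 75.6 to 109 (Ct), 75.8 to 114 (ECH) and 61.2 to 84.9 CPM (HF). Cd83, which opposes March1, differed within ECH, with 1758 and 1466 CPM in libraries 1 and 2 and 324 and 478 CPM in libraries 3 and 4, against 1030.2 to 2149.9 CPM in Ct. Of 6 co-stimulatory genes, Cd40, the receptor of T cell CD40 ligand, was called in HF against Ct and fell from 36.4 to 47.5 CPM to 14.7 to 24.1 CPM (log2 fold change -1.17 ± 0.20, SE; FDR 0.025, edgeR). In ECH it was at 18.4 to 25.9 CPM (-0.97 ± 0.20; FDR 0.052). Cd40 in HF lost its call in 6 of 23 other fits. Pdcd1lg2 stayed at or under 1.70 CPM. Of 9 genes of MHC class I presentation none was called, their median log2 fold changes were 0.048 in ECH and -0.028 in HF against Ct, and B2m, the shared light chain, was at 2855 to 3151 CPM in Ct and 3550.3 to 4041 CPM in ECH (0.30 ± 0.11, SE; FDR 0.270, edgeR).

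Outside the list, Clec12a, an inhibitory C-type lectin receptor of myeloid cells, had the pattern most like the mean of the 8 genes, with a Pearson correlation of 0.95 over 12 libraries. Its level was 207 ± 40.4 CPM (Ct), 74.9 ± 39.8 CPM (ECH) and 118 ± 20.9 CPM (HF) (SD, n = 4), with a log2 fold change of -1.46 ± 0.30 in ECH against Ct (SE; FDR 0.051, edgeR). It was followed by Dnmt3a (0.94), Marcks (0.94), Rnase6 (0.93) and Ifi203 (0.90). The most opposite patterns were those of Gclc, which makes glutathione (-0.93), the cobalamin carrier Tcn2 (-0.92) and the ubiquitin ligase adaptor Spop (-0.92). Within groups the correlation was 0.90 for Clec12a and -0.86 for Gclc, and without the 2 libraries farthest from the median it was 0.89 and -0.89. Among all genes ranked by likeness, Ciita stood at rank 270 with a correlation of 0.69, H2-DMb2 at rank 28 with 0.86, and the other 6 members at ranks 1 to 4, 9 and 10. The members' own ranks are partly set by their part in the mean.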

How the data were processed

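RNA of cardiac Mφ from 12 mice was analysed. The authors amplified cDNA with a SMART-Seq v4 kit, trimmed the reads with Trimmomatic, aligned them to mm10 with TopHat2, counted them on genes with featureCounts and deposited raw counts. Their versions, annotation and strand setting are not stated in the sources used here. Counts were tested with edgeR 4.0.16 in R 4.3.3 (quasi-likelihood, TMM scaling, filterByExpr by group, 1 mean per group over all 12 libraries), with Benjamini-Hochberg adjustment over the 14608 genes tested and calls at an FDR under 0.05 and at least 2-fold. The p-values measure the spread between 4 mice a group. Libraries that share a code number in their labels were treated as independent, and no fit included the code. Alternatives were DESeq2 1.42.0, RLE scaling, edgeR's likelihood ratio test, limma-voom (limma 3.58.1), other filters, fits of the compared groups, a replicate block, the library set, and each library left out. Genes with exactly 2 counts outnumbered those with 1 or 3 throughout, so counts may not be independent fragments, and the libraries carry no molecular identifiers. The code was tested on simulated counts. Genes were named by a written rule: the members, fixed names of the pathway, genes of the lists with an FDR under 0.05 or the largest difference between ECH and Ct, and those most like or unlike the members. The members, lists and rules were chosen with earlier results of these data known. Replicate numbers did not pair the mice (correlations of same-numbered libraries between -0.070 and 0.069). No 2 libraries of the same group agreed within sampling noise, and libraries of different groups were not compared in this way. The result of 1 gene that the rule names is not reported here.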

Additional observations from a re-analysis of the deposited data

Results flagged for a closer look

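In 2 of 42 sets of a gene and a group, a library lay far from the other 3, and chance flags about 1 in 20 such sets. H2-Aa in ECH library 2 was at 3380.5 CPM, with the other ECH libraries between 1910.3 and 2145 CPM. Ctsd in Ct library 4 was at 1137 CPM, with the other Ct libraries between 989 and 1001 CPM.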

How the results depend on the processing

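The number of members called in ECH against Ct was 0 in the reported fit and 1 by DESeq2, 1 by the likelihood ratio test and 0 to 1 when each library was left out (1 without Ct replicate 3). The median log2 fold change of the members stayed between -0.86 and -0.56 in ECH against Ct, between -0.36 and -0.15 in HF against Ct and between 0.31 and 0.61 in HF against ECH when each library was left out. In HF against Ct the library set as a covariate turned the median to 0.11 and the values of Cd74 (0.049), H2-Aa (0.079), H2-Ab1 (0.60), H2-DMa (0.72), H2-DMb1 (0.61) and H2-Eb1 (0.14) positive, and limma-voom turned H2-DMb1 (0.030). In the same comparison, leaving out 1 library gave -0.22 to 0.038 for H2-Ab1, -0.11 to 0.078 for H2-DMa and -0.12 to 0.074 for H2-DMb1, with positive values without Ct replicate 2 and without HF replicate 2. Of the fits chosen after seeing the data, that without Ct library 2 and HF library 1 turned H2-DMb1 (0.046), and that without Ct library 2 (most B cell RNA) and ECH library 2 (most class II RNA in ECH, hence chosen on the outcome) turned H2-Ab1 (0.0051), H2-DMa (0.016) and H2-DMb1 (0.064). The cause was not tested. Of all genes, 52, 55 and 0 were called in ECH against Ct, HF against Ct and HF against ECH, and 248, 333 and 47 by DESeq2, 218, 273 and 48 by the likelihood ratio test, 84, 130 and 0 by limma-voom and 22, 208 and 272 with the library set as a covariate. Only the groups compared gave 8 in ECH against Ct, and libraries of the same set 1 in ECH against Ct and 370 in HF against ECH. Leaving out each library gave 11 to 95 in ECH against Ct and 15 to 103 in HF against Ct.

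With the replicate block, medians were -0.65, -0.25 and 0.46 in the order above, no member was called, and 22 and 18 of all genes were called against Ct; the numbers do not pair the mice. Under the block Cd40 in HF against Ct had an FDR of 0.054 and Timd4 in ECH against Ct one of 0.080. With totals of 88466559 counts or more, each member had at least 827 counts in every library, and the common biological coefficient of variation over all genes was 60.8%.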
